A study of Mus musculus with 18 samples.

Results

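The 7 genes described here, Pou5f1, Sox2, Sall4, Lin28a, Utf1, Dppa4 and Dppa5a, are factors of the general pluripotency programme, shared by naïve and later pluripotent cells. They were chosen by symbol, and all 7 were found among the 55487 genes of the count table. RNA-seq libraries were made from mouse embryonic stem cells (mESCs) of the line ES-E14TG2a, kept undifferentiated in Serum/LIF on gelatin, and from embryoid bodies (EBs), aggregates that differentiate in suspension without LIF, at 48 hr and 96 hr. Each of the 3 stages had 6 libraries, of which the labels give 3 as wild type (WT) and 3 as knockout (KO) for IκBα, the inhibitor of NF-κB encoded by Nfkbia. KO clones were grown from single sorted cells after cutting exon 1 of Nfkbia with a pair of guides, whereas WT clones had received scrambled guides that target no gene. Independent clones served as replicates.

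The mESC libraries are named by genotype. The 12 EB libraries are named by a code (D4, E14, E2, E3, H7 and H9, each present at both times) that the labels do not pair with a genotype, so EB libraries were compared by stage only. Every stage then holds both genotypes in equal number, and its spread includes any difference between them.

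Oct4 (the protein of Pou5f1) and Sox2 bind DNA side by side at joined octamer and Sox motifs and sustain the genes of pluripotent cells, while Sall4 is a zinc finger protein that works with them. Lin28a is an RNA-binding protein that blocks the maturation of the let-7 microRNAs, which otherwise favour differentiation. Utf1 is a chromatin-bound protein, Dppa4 is a DNA-binding partner of Dppa2, and Dppa5a is a KH-domain protein made in pluripotent and germ cells. All are markers of undifferentiated cells and are silenced in most somatic tissues.

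Counts on genes ranged from 28287582 to 40904247 per library, and the libraries of KO mESCs (34107070 to 40904247) were deeper than those of WT mESCs (29423089 to 31091857). The unit of expression below is CPM, in which each gene's counts are divided by the TMM-scaled size of the library, so that depth and composition are corrected for. In the mESCs, Nfkbia itself stood at 34.6, 34.9 and 25.1 CPM in the WT clones and at 10.2, 9.42 and 10.3 CPM in the KO clones, a log2 fold change of -1.67 ± 0.14 (SE, edgeR adjusted p = 0.00489). In EBs Nfkbia ranged from 7.14 to 15.1 CPM at 48 hr and from 5.04 to 23.0 CPM at 96 hr. No pair of libraries within a group was a duplicate.

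Promoters of the members were searched for the letters that Oct4 and Sox proteins read. The windows of 250 bases before the start were read from RefSeq (GRCm38.p6), which gave 5 windows for 4 members, Pou5f1 (2 windows), Sox2, Lin28a and Utf1. Both strands were searched for ATGCAAA, a part of the octamer that Oct4 reads, and for CATTGT, the letters of Sox proteins. The full octamer was not searched for. Over all 32851 promoters, 4.12% held the first and 10.7% the second. The stretches with a match are printed 5′ to 3′ on the strand of the gene, with the match in capitals. Every stretch with a match is shown, and a link between a match and the direction of change was not tested.
Sox2 (chr3:34649876-34649922, + strand): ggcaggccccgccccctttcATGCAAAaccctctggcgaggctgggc
Lin28a (chr4:134018887-134018932, - strand): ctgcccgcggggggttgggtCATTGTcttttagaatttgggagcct
Pou5f1 (chr17:35508629-35508674, + strand): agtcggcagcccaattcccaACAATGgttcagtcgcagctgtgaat
ATGCAAA lay 99 bases before the start of Sox2, the Sox letters 96 bases before that of Lin28a, and in the second window of Pou5f1 the Sox letters lay on the other strand, 158 bases before that start. These distances count from RefSeq starts. The RefSeq start of Sox2 lies 410 bases upstream of its start in the annotation used for gene positions here, that of Lin28a 25 bases downstream, and the second start of Pou5f1 2789 bases downstream, within the gene. The first window of Pou5f1 and that of Utf1 held neither. A match describes these letters and is not a measured binding site.

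In undifferentiated mESCs the members covered a wide range of levels. Per kilobase of exon, Dppa5a was the most abundant, with a median of 2579 CPM per kb over the 6 libraries (range 2312 to 3049). Pou5f1 followed at 399 CPM per kb (389.1 to 430.5) and Sox2 at 222.7 CPM per kb (173.9 to 243.2). Neither of these ranges touched the next. Utf1 (median 119.7 CPM per kb, range 101.8 to 129.4), Lin28a (106.1, 77.6 to 120.0) and Dppa4 (89.9, 82.6 to 99.7) overlapped their neighbours. Sall4 was the lowest, at 45.9 CPM per kb (32.5 to 47.7), and lay below all of them. Reads that fit several gene copies equally well are not in these counts, so the level of a gene with near-identical copies is a minimum.

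At 48 hr the order per kilobase remained Dppa5a (median 1807 CPM per kb) and Pou5f1 (417.6) at the top. Utf1 (179.4), Lin28a (148.8) and Dppa4 (99.4), all below Sox2 in mESCs, now stood above Sox2 (95.9) by median, with Sall4 (56.6) lowest. The ranges of Utf1 (165.8 to 223.1) and Lin28a (108.6 to 190.3) overlapped, as did those of Dppa4 (76.8 to 103.6) and Sox2 (80.3 to 126.9). At 96 hr Dppa5a (median 970.7 CPM per kb, range 337.0 to 1782) overlapped with Pou5f1 (341.1, 184.4 to 369.8). Below them Lin28a (143.5), Utf1 (113.5), Sox2 (70.4), Dppa4 (49.5) and Sall4 (44.1) followed, and each of these ranges overlapped with the next. Sox2 had thus moved from the third to the fifth place by median level per kilobase.

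**Figure D1:**
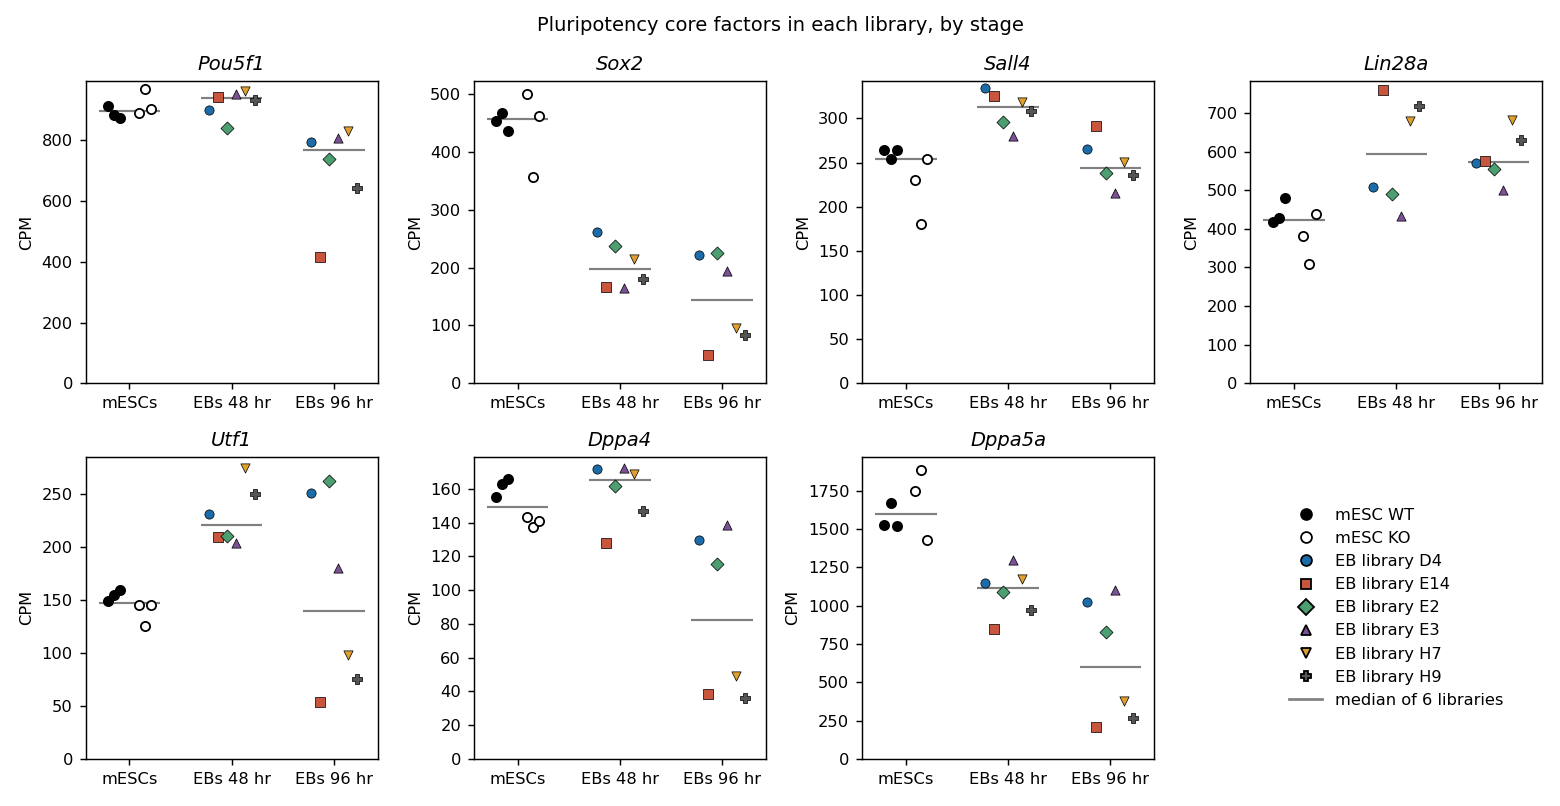
Level of each member (CPM, linear axis from 0) in every library, by stage. Each point is 1 library and grey lines are medians of 6 libraries. Pou5f1 stays between 415 and 968 CPM, Sox2 steps down from mESCs to 48 hr, and Sox2, Utf1, Dppa4 and Dppa5a spread widely at 96 hr.

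The first comparison asked whether the loss of IκBα altered these factors before differentiation. None of the 7 passed the test between KO and WT mESCs, where 4.79% of the 21843 genes tested were called at an edgeR adjusted p under 0.05. By DESeq2 none was called either, and before adjustment 1 member, Dppa4, had an edgeR p under 0.05 (0.0105). All 7 members passed the filter on low counts. Their median log2 fold change was -0.16, beside 0.02 over all genes tested, and 5 of 7 had a negative sign. For 3 members, Sall4, Utf1 and Dppa4, all KO clones lay below all WT clones, an arrangement that 13.5% of all genes shared (28.9% in either direction).

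Among the transcription factors, Pou5f1 gave 912, 882 and 875 CPM in the WT clones and 890, 968 and 904 CPM in the KO clones. The groups overlapped, and the log2 fold change of KO over WT was 0.04 ± 0.06 (SE, edgeR adjusted p = 0.733). Sox2 stood at 453, 467 and 436 CPM in WT and at 500, 358 and 463 CPM in KO clones, with a log2 fold change of -0.04 ± 0.12 (edgeR adjusted p = 0.874). KO clone 2 alone was low for Sox2, and without it the sign turned (log2 fold change 0.086). Sall4 gave 264, 254 and 264 CPM in WT and 230, 180 and 254 CPM in KO clones. The highest KO clone lay just under the lowest WT clone, and the log2 fold change of -0.25 ± 0.12 had an edgeR adjusted p of 0.266.

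Lin28a stood at 419, 429 and 479 CPM in the WT clones and at 380, 310 and 440 CPM in the KO clones. Its groups overlapped (log2 fold change -0.24 ± 0.12, edgeR adjusted p = 0.296). The remaining members differed by small amounts. Utf1 gave 149, 155 and 159 CPM in WT and 145, 125 and 145 CPM in KO clones, with a log2 fold change of -0.16 ± 0.08 (edgeR adjusted p = 0.286). Dppa4 did not overlap either, with 155, 163 and 166 CPM in WT and 143, 137 and 141 CPM in KO clones (log2 fold change -0.21 ± 0.06, edgeR adjusted p = 0.104). Dppa5a overlapped, at 1524, 1669 and 1518 CPM in WT and 1747, 1888 and 1431 CPM in KO clones, with a log2 fold change of 0.10 ± 0.10 (edgeR adjusted p = 0.64). For Sall4, Utf1 and Dppa4 the exact permutation test gave p = 0.1, the smallest value that 3 against 3 clones can give.

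**Figure D2:**
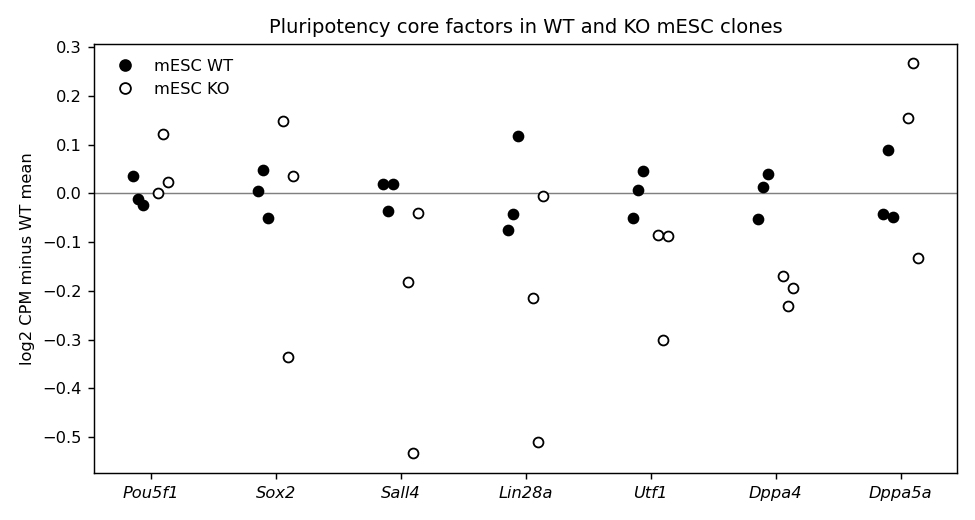
Log2 CPM of each member in the 3 WT (filled) and 3 KO (open) mESC clones, minus the mean of the WT clones. Open points lie below all filled points for Sall4, Utf1 and Dppa4 and overlap them for the other members.

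KO clone 2 was the lowest of the 6 mESC libraries for Sox2, Sall4, Lin28a, Utf1 and Dppa4 and the highest for Pou5f1 and Dppa5a. Without it the log2 fold changes were -0.12 for Sall4, -0.12 for Lin28a, -0.093 for Utf1, 0.0059 for Pou5f1 and 0.012 for Dppa5a, each moved toward 0 by over 1.5 times. Leaving out KO clone 3 gave -0.36 for Lin28a and 0.21 for Dppa5a. Without KO clone 2 the test called 3736 genes (17.8%) in place of 1046, and 1 member, Dppa4, which fell by 0.19 on the log2 scale (edgeR adjusted p = 0.0266). Without any other single clone no member was called, and the number of genes called ranged from 0 (without WT clone 2, with 3104 genes at an unadjusted p under 0.05) to 381. By DESeq2 over all 6 libraries, 2133 genes were called.

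The second comparison followed the members into differentiation. From mESCs to 48 hr EBs, 3 of 7 members passed the test, Sall4 and Lin28a being higher and Sox2 lower, where 27.9% of the 25318 genes tested were called (14.9% higher and 13.0% lower). With 7 members, 3 calls is a share near this background. The groups did not overlap for 4 members, Sox2, Sall4, Utf1 and Dppa5a, as for 16.7% of all genes. The members did not move as a unit, as their median log2 fold change was 0.09 with values from -1.11 to 0.67.

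Sox2 fell most. Its 48 hr libraries D4, E14, E2, E3, H7 and H9 held 261, 167, 237, 165, 214 and 180 CPM, all below the lowest mESC library (358 CPM). The log2 fold change was -1.11 ± 0.28 (SE, edgeR adjusted p = 0.00622), a level 0.465 times that of mESCs, and the exact permutation test gave p = 0.00216, the smallest that 6 against 6 libraries can give. Its partner Pou5f1 held 899, 944, 840, 954, 962 and 934 CPM in the same libraries. These values overlapped with those of mESCs (log2 fold change 0.05 ± 0.11, edgeR adjusted p = 0.794).

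Sall4 rose, to 335, 326, 296, 281, 319 and 308 CPM in D4, E14, E2, E3, H7 and H9. All 6 exceeded the highest mESC library (264 CPM), with a log2 fold change of 0.39 ± 0.09 (edgeR adjusted p = 0.00301). Lin28a rose as well, to 509, 760, 490, 434, 680 and 717 CPM (log2 fold change 0.57 ± 0.13, edgeR adjusted p = 0.00351). E14, H7 and H9 were the 3 highest libraries for Lin28a, and E3 fell within the range of mESCs (310 to 479 CPM).

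Utf1 held 230, 209, 210, 203, 274 and 250 CPM at 48 hr, all above the highest mESC library (159 CPM). Dppa5a held 851 to 1301 CPM (median 1119), all below the lowest mESC library (1431 CPM). Neither passed the test with all 18 libraries in 1 fit (Utf1 log2 fold change 0.67 ± 0.28, edgeR adjusted p = 0.0888, and Dppa5a -0.56 ± 0.31, edgeR adjusted p = 0.198), where the spread is shared with the 96 hr libraries. With only the 12 mESC and 48 hr libraries in the fit, an alternative added after seeing that the spread differed between stages, both were called (edgeR adjusted p = 2.67e-05 for Utf1 and 0.000534 for Dppa5a), which made 5 of 7 members, where 33.5% of genes were called in that fit. Utf1 was also called in the shared fit when E14 at 96 hr was left out (edgeR adjusted p = 0.0366). Dppa4 overlapped between the stages, with 128 to 172 CPM at 48 hr and 137 to 166 CPM in mESCs (log2 fold change 0.09 ± 0.27, edgeR adjusted p = 0.851).

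**Figure D3:**
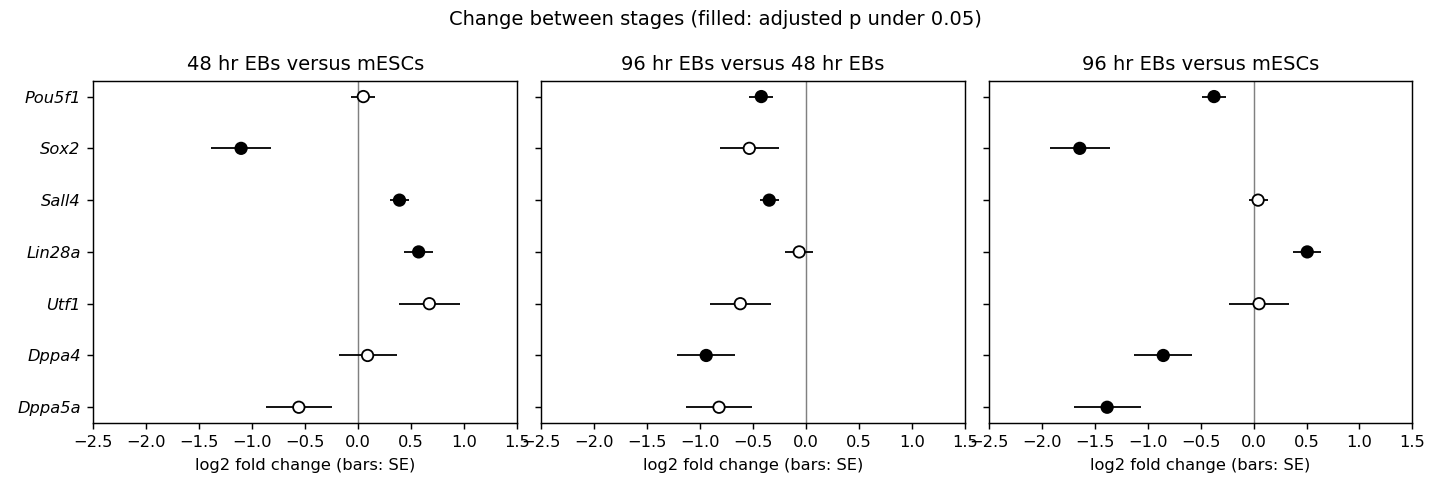
Log2 fold change (points) with its standard error (bars) of each member for the 3 stage comparisons in the edgeR fit over 18 libraries. Filled points passed an adjusted p under 0.05. At 48 hr Sall4 and Lin28a lie to the right and Sox2 to the left of 0, and from 48 hr to 96 hr all 7 points lie left of 0, of which 3 are filled.

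From 48 hr to 96 hr all 7 members had a negative log2 fold change, with a median of -0.53 beside -0.03 over all genes. Pou5f1, Sall4 and Dppa4 passed the test, all of them lower, where 27.7% of genes were called (13.8% lower). Pou5f1 was the only member whose groups did not overlap, as for 8.68% of all genes (3.68% lower). Since bulk RNA was measured, fewer pluripotent cells and less RNA per cell cannot be told apart.

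Pou5f1 held 795, 415, 739, 808, 831 and 644 CPM in D4, E14, E2, E3, H7 and H9 at 96 hr. All lay below the lowest 48 hr library (840 CPM), E14 farthest, and the log2 fold change was -0.42 ± 0.11 (SE, edgeR adjusted p = 0.0101), or -0.27 without E14 (edgeR adjusted p = 0.00388). Sall4 held 266, 292, 238, 216, 251 and 236 CPM, which overlapped with the 180 to 264 CPM of mESCs (log2 fold change against 48 hr -0.35 ± 0.09, edgeR adjusted p = 0.00865). Against mESCs its log2 fold change was 0.04 ± 0.09 (edgeR adjusted p = 0.731), with a sign that turned when KO mESC clone 2 was left out (-0.027). Dppa4 held 130, 38.3, 116, 139, 49.0 and 36.3 CPM, which gave a log2 fold change against 48 hr of -0.94 ± 0.28 (edgeR adjusted p = 0.0174). With only the 12 EB libraries in the fit, Dppa4 lost its call (edgeR adjusted p = 0.0611), 2 members and 22.3% of genes being called in that fit.

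Dppa5a held 1024, 209, 826, 1103, 375 and 264 CPM at 96 hr, and its log2 fold change against 48 hr was -0.82 ± 0.31 (edgeR adjusted p = 0.058). With the code as a block over the 12 EB libraries it was called (log2 fold change -1.06, edgeR adjusted p = 0.0304), which made 4 of 7 members, where 37.7% of genes were called in that fit. Sox2 held 222, 48.0, 226, 194, 96.1 and 83.3 CPM, and overlapped with its 48 hr values (log2 fold change -0.53 ± 0.28, edgeR adjusted p = 0.162). Utf1 held 250, 53.4, 262, 180, 98.3 and 75.6 CPM (log2 fold change -0.62 ± 0.28, edgeR adjusted p = 0.113). Without E14 at 96 hr these 2 log2 fold changes were -0.31 for Sox2 and -0.40 for Utf1. The 96 hr values of Utf1 reached from below all 48 hr libraries to nearly the highest of them. Calls of Dppa5a and Utf1 turned on single 96 hr libraries, as Dppa5a was called without D4 (edgeR adjusted p = 0.0246) or E3 (0.0156), and Utf1 without D4 (0.0389) or E2 (0.0322). Lin28a held 500 to 681 CPM (median 573), within the range at 48 hr (log2 fold change -0.06 ± 0.13, edgeR adjusted p = 0.763).

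Joined by code, the change from 48 hr to 96 hr was lower in 6 of 6 codes for Pou5f1, Sall4, Dppa4 and Dppa5a. Sall4 changed by similar amounts, from -0.38 to -0.16 on the log2 scale. Pou5f1 fell in E14 by 1.19 and in the other codes by 0.18 to 0.54. Dppa4 changed by -1.74, -1.78 and -2.01 in E14, H7 and H9 and by -0.41, -0.48 and -0.31 in D4, E2 and E3. The changes of Dppa5a were -2.03, -1.64 and -1.88 in E14, H7 and H9, against -0.17, -0.40 and -0.24 in D4, E2 and E3. Sox2 was lower in 5 of 6 codes and higher by 0.23 in E3. Utf1 was lower in 4 of 6 codes and higher in D4 (0.12) and E2 (0.32). Lin28a was lower in 2 codes, E14 (-0.40) and H9 (-0.19).

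**Figure D4:**
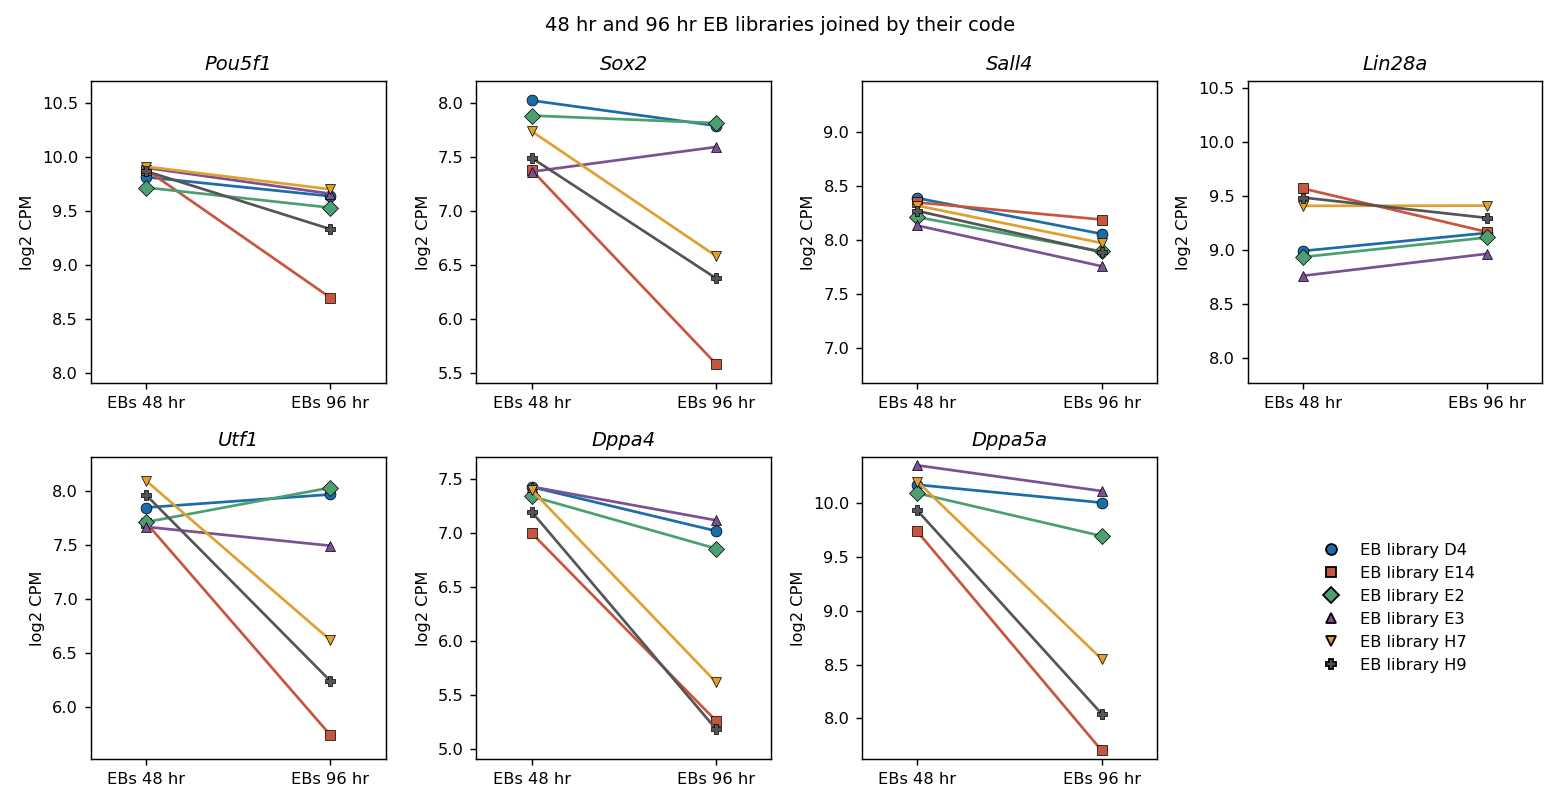
Log2 CPM of each member in the 48 hr and 96 hr EB libraries, joined by code. Every panel spans the same log2 range. The lines of E14, H7 and H9 fall steeply for Sox2, Utf1, Dppa4 and Dppa5a, those of D4, E2 and E3 stay within 0.5 of their start, and the 6 lines of Sall4 run nearly parallel.

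Against mESCs, 5 of 7 members passed the test at 96 hr, where 43.0% of all genes were called (22.7% higher and 20.3% lower), and the groups did not overlap for 4 members (23.0% of all genes). This comparison and that at 48 hr share the 6 mESC libraries. Sox2 (log2 fold change -1.64 ± 0.29, edgeR adjusted p = 0.000164) and Dppa5a (-1.38 ± 0.32, edgeR adjusted p = 0.00179) had fallen most, to 0.321 and 0.384 times the level of mESCs. Dppa4 (-0.85 ± 0.28, edgeR adjusted p = 0.0181) and Pou5f1 (-0.37 ± 0.11, edgeR adjusted p = 0.0116, or -0.24 without E14) were lower as well. Lin28a was the only member that was higher, 1.42 times the level of mESCs (log2 fold change 0.51 ± 0.13, edgeR adjusted p = 0.00508), and every 96 hr library exceeded every mESC library. Utf1, at 0.05 ± 0.28 (edgeR adjusted p = 0.902), combined 3 libraries above and 3 below all mESC libraries.

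The members differed in their spread between libraries at 96 hr. The SD of log2 CPM over the 6 libraries was 0.92 for Sox2, 0.95 for Utf1, 0.92 for Dppa4 and 1.05 for Dppa5a, beside a median of 0.21 over 9250 genes with a mean of at least 10 CPM. Of those genes, 96.1% to 97.0% had a smaller SD. Pou5f1 had an SD of 0.38 (79.0% of genes smaller), whereas Sall4 and Lin28a, at 0.15 each, lay under the median. In mESCs the SDs of the 7 members were 0.05 (Pou5f1) to 0.22 (Lin28a) beside a median over genes of 0.15, and at 48 hr 0.07 (Pou5f1) to 0.34 (Lin28a) beside 0.18.

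For Sox2, Utf1, Dppa4 and Dppa5a the 3 lowest libraries at 96 hr were E14, H7 and H9, an arrangement found in 20.2% of the 25318 genes tested. Between these and the next library there was a gap of 0.87 (Utf1) to 1.24 (Dppa4) on the log2 scale. For Lin28a the order was opposite, with D4, E2 and E3 lowest, as in 19.0% of genes. Pou5f1 and Sall4 followed neither order, since H7 was the highest library for Pou5f1 and E14 the highest for Sall4. At 48 hr E14, H7 and H9 were not together the lowest for any member, and for Lin28a they were together the highest. The codes carry no genotype in the labels, so no test was run on this order. Where E14, H7 and H9 are set beside D4, E2 and E3, these sets were read from the values themselves and serve as description only.

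Markers of differentiating cells moved over the same libraries. The summed level of 16 markers of primitive streak, mesoderm, endoderm, epiblast and ectoderm was 76.4 to 154 CPM in mESCs and 132 to 406 CPM at 48 hr. By library, the 48 hr sums were 138 CPM in D4, 406 in E14, 155 in E2, 132 in E3, 256 in H7 and 309 in H9. At 96 hr the sum was 280 CPM in D4, 1550 in E14, 316 in E2, 196 in E3, 1100 in H7 and 1440 in H9. At both times the 3 highest sums were in E14, H7 and H9. Between 48 hr and 96 hr 10 of the 16 were called higher and 1 lower, where 13.9% of all genes were called higher and 13.8% lower, and none was at 0 in all libraries of a stage. Brachyury (T), which marks the primitive streak, gave 353, 270 and 511 CPM in E14, H7 and H9 at 96 hr and 0.727 to 1.47 CPM in D4, E2 and E3. Mixl1, another streak gene, gave 126, 70.4 and 140 CPM against 1.24 to 1.53 CPM. Kdr, a receptor of early mesoderm, and Mesp1, a regulator of cardiac mesoderm, were called higher as well (log2 fold changes against 48 hr of 5.59 and 7.51), whereas Pax6, a neural regulator, was lower (-1.48). Mesp1 was near the floor at 48 hr (0 to 0.036 CPM) and ranged from 0 to 24.6 CPM at 96 hr (median 0.553). Kdr ranged from 0.38 to 2.05 CPM at 48 hr and from 0.431 to 313 CPM at 96 hr (median 4.85). The part of these cells in the levels of the members was not tested.

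Summed levels of 6 trophoblast markers were 78.3 to 173 CPM in mESCs, 42.0 to 150 CPM at 48 hr and 89.4 to 839 CPM at 96 hr, with the maximum in E14, the library with the lowest Pou5f1. Of that sum Krt8 held 471 CPM and Krt18 257 CPM, keratins that epithelia in general make. The endoderm genes Gata4 (88.9 CPM) and Sox17 (38.1 CPM) were also highest in E14 at 96 hr, beside 2.02 to 15.0 CPM and 0.269 to 8.0 CPM in the other libraries. Of the 6 trophoblast markers, 4 were called higher at 96 hr than at 48 hr (13.9% of all genes). At 96 hr against mESCs 4 were called higher and 1, Tfap2c, lower (22.7% and 20.3% of all genes). Tfap2c was lower than in mESCs at 48 hr (log2 fold change -1.96, edgeR adjusted p = 3.04e-05) and at 96 hr (-1.90, edgeR adjusted p = 2.36e-05). The 8 fibroblast markers, which would mark feeder or stromal cells, summed to 12.5 to 25.9 CPM in mESCs, 13.1 to 19.8 CPM at 48 hr and 13.6 to 89.5 CPM at 96 hr, again highest in E14, and 1 of the 8 was called higher from 48 hr to 96 hr, a share near that of all genes. One of these 8 was at 0 in all KO mESC libraries. Their part in the levels of the members was likewise not tested.

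Other genes of the same circuit were counted from lists. Their counts stand beside the share of all genes called, which was 4.79% for KO against WT mESCs, 14.9% higher and 13.0% lower at 48 hr against mESCs, 13.9% higher and 13.8% lower from 48 hr to 96 hr, and 22.7% higher and 20.3% lower at 96 hr against mESCs. Of 17 partners and cofactors of Oct4 and Sox2, 5 were called higher and 5 lower at 48 hr against mESCs, and 0 higher and 8 lower from 48 hr to 96 hr. At 96 hr against mESCs 5 of the 17 were called higher and 10 lower. Nanog, the homeobox factor that works beside Oct4 and Sox2, was lower at 48 hr (log2 fold change -1.78 ± 0.26, edgeR adjusted p = 4.49e-05), with 92.1 to 236 CPM against 446 to 657 CPM in mESCs. Klf5 (-2.20), a zinc finger factor of the same network, was lower too. The remodeller gene Chd7 (1.08), Zscan10 (0.85) and Nacc1 (0.76) were higher. Nr0b1 (-1.76), Trim28 (-0.63) and Rif1 (-0.58) were, from 48 hr to 96 hr, the called partners with the largest decreases. In KO against WT mESCs, 2 of the 17 were called, Chd7 (log2 fold change -0.51, edgeR adjusted p = 0.0281) and the corepressor gene Trim28 (-0.30, edgeR adjusted p = 0.0452), both lower. Without WT clone 2 no gene was called in this comparison. Genotype calls in this list and in those below thus depend on that clone.

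Of 10 early targets of the Oct4-Sox2 pair, 0 were called higher and 5 lower at 48 hr against mESCs, 1 higher and 4 lower from 48 hr to 96 hr, and 1 higher and 8 lower at 96 hr against mESCs, where 27.9%, 27.7% and 43.0% of all genes were called in either direction. The median log2 fold change of the 10 at 48 hr was -1.12, beside 0.00 over all genes. Spp1 (-1.93), Zfp42 (-1.93), also called Rex1, and Nanog, which is on both lists, were the largest decreases at 48 hr. At 96 hr against 48 hr Spp1 (-1.36), Gdf3 (-1.27) and the growth factor gene Fgf4 (-1.22) were lower, and Upp1, an enzyme of uridine breakdown, was higher (1.32). Lefty1, an inhibitor of Nodal, was the target higher at 96 hr than in mESCs (1.24). In KO mESCs 2 of these 10 were called, both higher than in WT mESCs, Spp1 (log2 fold change 0.76, edgeR adjusted p = 0.0162) and Zfp42 (0.49, edgeR adjusted p = 0.0478).

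Of 13 genes of the Lin28a and let-7 axis, 6 were called higher and 0 lower at 48 hr against mESCs (14.9% and 13.0% of all genes). Among them were the paralogue Lin28b (log2 fold change 0.91), the microRNA-processing enzyme gene Drosha (0.88) and the RNA-binding let-7 target Igf2bp3 (0.68). From 48 hr to 96 hr 0 were higher and 4 lower (13.9% and 13.8% of all genes), with Drosha (-0.42), Trim71 (-0.39) and Igf2bp1 (-0.30) the largest decreases. In either direction the share called was 30.8%, near the 27.7% of all genes. Lin28b rose to 48.2 to 108 CPM at 96 hr from 28.7 to 53.7 CPM in mESCs (1.22 ± 0.28, edgeR adjusted p = 0.00168). In KO against WT mESCs 2 were called, Hmga2, a let-7 target, being higher (1.33, edgeR adjusted p = 0.0333) and Igf2bp1 lower (-0.35, edgeR adjusted p = 0.0388). No let-7 level was measured in these libraries.

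A list of 12 genes held relatives of the core factors and Dppa3, which shares only a name with Dppa4 and Dppa5a. Of these 12, 5 were called higher and 1 lower at 48 hr against mESCs (14.9% and 13.0% of all genes). Sall2 (log2 fold change 2.89), Sox3 (2.65) and Pou3f1 (2.05), relatives of Sall4, Sox2 and Pou5f1, rose, and Dppa3 (-0.86) was lower. From 48 hr to 96 hr 0 were higher and 5 lower (13.9% and 13.8% of all genes), including Pou3f2 (-1.45), Dppa3 (-1.33) and Dppa2 (-1.32), the partner of Dppa4. Pou3f2 was near the floor at both times, with overlapping ranges of 0.165 to 0.792 CPM at 48 hr and 0.135 to 0.235 CPM at 96 hr. At 96 hr against mESCs 5 were higher and 3 lower, with Sox3 (2.95), Sall2 (2.76) and Sall3 (1.80) the largest increases and Dppa3 (-2.19), Sox15 (-1.49) and Dppa2 (-1.18) the decreases. In KO mESCs Sox1 was higher (1.45, 3.94 to 5.50 CPM against 0.885 to 2.47 CPM) and Pou3f1 lower (-2.07, 5.24 to 10.4 CPM against 18.1 to 44.9 CPM), with edgeR adjusted p of 0.0478 and 0.0233. Fgf5, an epiblast marker, was lower in KO mESCs as well, at 0.0586 to 0.220 CPM against 1.82 to 5.67 CPM. Of the 16 differentiation markers, which include Fgf5, Pou3f1 and Sox1, 1 was called higher and 2 lower in KO mESCs (4.79% of all genes in either direction). The median log2 fold change of the 16 was 0.36, beside 0.02 over all genes.

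Over all 18 libraries the members fell into no single pattern. Pearson correlations of log2 CPM were 0.935 between Dppa4 and Dppa5a, 0.925 between Sox2 and Dppa5a, 0.008 between Pou5f1 and Sall4 and -0.632 between Sox2 and Lin28a. These points share stages, clones and scaling, so the values are descriptions. Among 9241 other genes with a mean of at least 10 CPM, those most like Pou5f1 were Pir (0.93), L1td1 (0.93) and Actr3b (0.93), and those most like Sox2 were Mageb16 (0.98), Ccnb1 (0.98) and Arhgap30 (0.98). For Sall4 they were Eif2b2 (0.93), Qtrt1 (0.92) and Atxn7l1 (0.90), and for Lin28a Rragd (0.96), Shroom2 (0.96) and Cul1 (0.95). Utf1 was most like Bcat2 (0.98), Bnc2 (0.96) and Rps4l (0.94), Dppa4 like Trim2 (0.98), Gm46426 (0.98) and its partner Dppa2 (0.98), and Dppa5a like Fgf4 (0.99), Gm2381 (0.98) and Slc9b1 (0.98).

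The members lie on 7 chromosomes of GRCm38, Pou5f1 at chr17:35506018-35510772, Sox2 at chr3:34650405-34652461, Sall4 at chr2:168748332-168767943, Lin28a at chr4:134003330-134018841, Utf1 at chr7:139943789-139945112, Dppa4 at chr16:48283733-48294237 and Dppa5a at chr9:78367052-78368177. Exons of genes on the opposite strand overlap those of Pou5f1 (Gm19553, 317 bases of overlap), Sall4 (Gm14261, 526 bases) and Lin28a (Gm13061, 234 bases), and without a stated strand setting reads there cannot be assigned to either gene. The median deviation of genes in the 10 Mb window around each member ranged from -0.03 to 0.11 on the log2 scale over the KO mESC clones, and with these values as offsets none of the members was called between KO and WT mESCs.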

How the data were processed

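The authors trimmed reads with Trim Galore 0.6.6, aligned them with STAR 2.7.8 to GRCm38 (mm10) and used featureCounts of Subread 2.0.1 to count exonic reads with a single match (tools per the submitters' processing notes). The deposited counts, whole numbers for 55487 genes that the authors had not normalized, were used here. The deposited normalized values were not used. Symbols came from GENCODE annotation of GRCm38 (55141 of 55487 IDs matched).

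Genes whose counts summed to 10 or more in a fit were tested in R 4.3.3 with edgeR 4.0.16 (TMM, robust quasi-likelihood, Benjamini-Hochberg over all genes tested, called under 0.05). KO and WT mESCs were fitted alone, and the stages in 1 fit over 18 libraries. Log2 CPM used a prior count of 2. Single values had two-sided exact permutation tests. DESeq2 1.42.0, other filters, left-out libraries and blocks were alternatives, and the fits were tested on simulated data. Members, lists and alternatives were chosen with earlier results of these data known. Named are the members, Nfkbia, at most 3 called genes per list, direction and comparison by fold change, and the 3 genes most correlated with each member, while single marker levels were chosen after their values were seen. One listed gene is not reported here. EB libraries of the same code deviated together (correlations 0.396 to 0.734 in 6 of 6 codes), whereas mESC libraries of the same replicate number did not (-0.117 to -0.008). Libraries of different codes were not correlated with each other, so these values do not show that a code marks a single clone. Codes were joined by their names.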

Additional observations from a re-analysis of the deposited data

Results flagged for a closer look

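Pou5f1 at 96 hr had 1 library far from the others. E14 stood at 415 CPM and the nearest library, H9, at 644 CPM, and the gap between them on the log2 scale was 0.632 of the range over the 6 libraries, just above Dixon's 95% critical value of 0.625. This was 1 of 16 groups of 6 libraries examined over the members and Nfkbia, and chance flags about 1 in 20. Without E14, the log2 fold change of Pou5f1 from 48 hr to 96 hr was -0.27 ± 0.06 (SE, edgeR adjusted p = 0.00388).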

How the results depend on the processing

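No member was called between KO and WT mESCs under any alternative run except without KO clone 2. Leaving out 1 clone gave 0 to 3736 genes called there (1046 with all clones, and 4713 at an unadjusted p under 0.05) and 0 to 1 members. The DESeq2 Wald test called 2133 genes and the replicate block 631, with no member in either, though the replicate numbers do not pair the clones. A threshold of 1 on the absolute log2 fold change left 372 genes (1.70%) and no member in that comparison. At 48 hr against mESCs it left 2422 genes (9.57%) and 1 member (Sox2). From 48 hr to 96 hr it left 3003 genes (11.9%) and 0 members, and at 96 hr against mESCs 5278 genes (20.8%) and 2 members. With 12 libraries in the fit, 5 members and 33.5% of genes were called at 48 hr against mESCs. Leaving out 1 library gave, from 48 hr to 96 hr, 3 to 5 members and 20.9% to 34.2% of genes (5 members and 28.6% of genes without D4 at 96 hr). The DESeq2 Wald test also called Dppa5a there (adjusted p = 0.0376), which made 4 members, where 31.0% of genes were called. The block on codes changed no call of a member other than that of Dppa5a.

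Signs turned only for values that were not called: Sox2 between genotypes (-0.16 to 0.086, positive without KO clone 2), Sall4 at 96 hr against mESCs (-0.027 to 0.085, negative without KO clone 2), Lin28a from 48 hr to 96 hr (-0.14 to 0.028, positive without E14, H7 or H9 at 48 hr) and Utf1 at 96 hr against mESCs (-0.17 to 0.25, negative without D4 or E2 at 96 hr). The causes were not tested. All members had over 36 CPM in every library.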
